A study of Mus musculus with 120 samples.

Results

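Scavenger receptors are the surface and lysosomal proteins with which macrophages bind modified lipoproteins, dying cells, microbes and debris and take them in for breakdown. They are grouped into classes by structure rather than by ancestry, and several of them also serve as cell type markers of resident macrophages. Macrophages are a main cell type of the host response around an implanted biomaterial, which is the tissue that was biopsied here. The 9 receptors described were Marco, Msr1, Colec12, Cd36, Scarb1, Cd68, Cd163, Mrc1 and Stab1. They were the rows with these symbols among the 55487 genes present in both deposited tables, and all 9 were found and passed the filter on low counts in every comparison.

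The samples were immunological niches (INs), microporous polycaprolactone scaffolds placed under the skin of female mice and biopsied repeatedly, with total RNA of the whole biopsy sequenced after ribosomal RNA depletion. NOD/ShiLtJ mice develop autoimmune diabetes spontaneously and were called progressors if they became hyperglycemic and nonprogressors if they did not, and NOR/LtJ is a related strain that does not develop the disease. The 120 libraries comprised 23 from 5 NOR mice aged 6 to 22 weeks in steps of 4, 39 from nonprogressors and 58 from 10 progressors at 6 weeks of age, 7, 5, 3 and 1 weeks before onset and at onset. Of the nonprogressor libraries, 33 came from 11 mice at 6 to 22 weeks of age and 6 were labelled by 31, 38 or 108 days after implantation and came from mice numbered 1 and 2, which the labels do not tie to the mice sampled by age. All mice of all groups received 4 INs at 4 weeks of age and were given the analgesic carprofen around surgery. From 6 weeks of age, 1 IN was removed each week in rotation over the 4 sites and a new IN was put in its place. Every IN had at least 2 weeks to engraft. The 2 sequencing batches, run on different instruments, did not hold the same groups: NOR was in batch 1 only, all 8 libraries taken 7 weeks before onset were in batch 2, and nonprogressors were at 6 to 22 weeks in batch 1 but at 6 and 14 weeks only in batch 2.

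Library totals ran from 4722396 to 56185434 counts with a median of 33487260. The 12 macrophage markers that are no members (Csf1r, Adgre1, C1qa and others) summed to between 3045 and 10529 CPM (counts scaled to a common library size) in the 120 libraries, with a median of 5514, and Fcgr1 and Aif1 were each at 0 in 1 library. One NOR library at 18 weeks, from mouse 5, gave 85.7% of its counts to a single ribosomal RNA gene and so had little depth elsewhere. The 4 nonprogressor libraries at 22 weeks gave 17.1 to 38.7% of their counts to the small RNAs 7SL and 7SK, against 0.216 to 21.5% in the other 116. In RNA of a whole biopsy, fewer cells of a type and less RNA per cell cannot be told apart.

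On a scale that allows genes to be compared, CPM per kilobase of exon, the receptors spanned a wide range. Cd68, the lysosomal sialomucin used as a general macrophage marker, had a median of 782 over the 120 libraries and Cd36, the fatty acid and oxidized lipoprotein receptor of class B, had 283. Mrc1 (the mannose receptor) followed at 66.4, Stab1 (stabilin-1) at 51.5, Colec12 (the collectin CL-P1 of class A) at 44.3 and Msr1 (the class A receptor SR-A) at 25.6. Cd163, the haemoglobin-haptoglobin receptor, had a median of 8.89, Scarb1, the high-density lipoprotein receptor SR-BI, 6.92, and Marco, the class A receptor with a collagenous structure, 0.541. Most neighbours kept their order in nearly every library, with Cd68 above Cd36 in 118 of 120 and Scarb1 above Marco in 118 of 120. The order was loosest between Cd163 and Scarb1, where 74 of 120 libraries had Cd163 above. Stab1 lay above Colec12 in 81 of 120 and Mrc1 above Stab1 in 89 of 120. The order of these neighbours thus varied between libraries, and their differences were not tested.

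**Figure D1:**
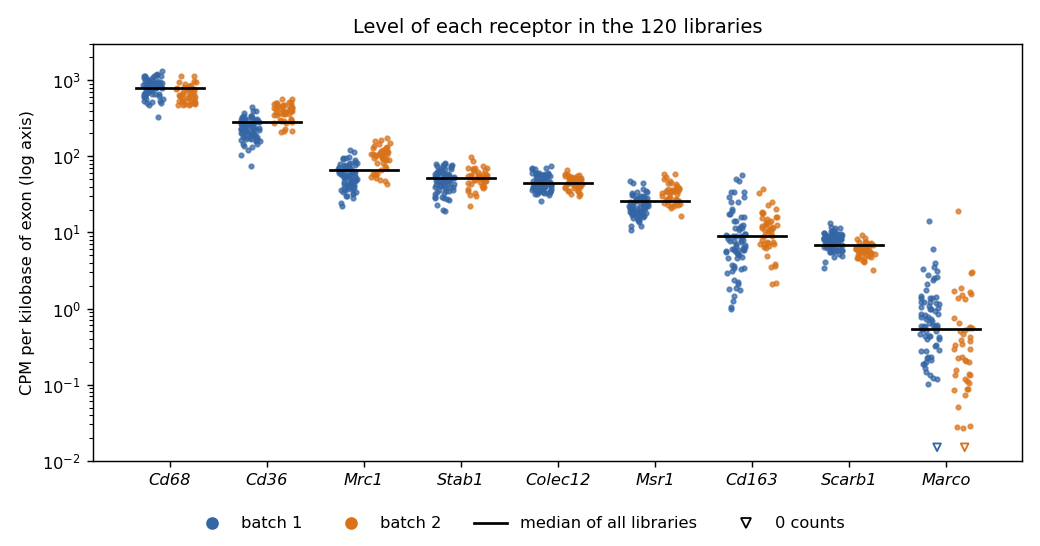
Level of each receptor in CPM per kilobase of exon (log axis), with 1 point per library coloured by batch, a black line at the median of 120 libraries and open triangles for libraries with 0 counts. Cd68 and Cd36 lie highest, and Marco lies lowest with the widest spread.

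The receptors also differed in how much they varied between groups. The highest group mean of Marco was 50.9 times its lowest, a ratio between the 6-week and onset progressors of batch 2 (10.1 ± 15.3 and 0.199 ± 0.272 CPM, SD, n = 5 each) that rests largely on the 37.4 CPM of progressor 9. It was 17.4 for Cd163, 4.35 for Mrc1, 3.35 for Msr1 and 2.79 for Cd36. Cd68, Stab1, Scarb1 and Colec12 varied least, with ratios of 2.01, 2.17, 2.09 and 1.95. Marco was read from few molecules, with a median of 33 counts per library against 5210 for Msr1. It had 0 counts in 2 libraries, which allowed up to 3.03 CPM in the NOR library of mouse 5 at 18 weeks and up to 0.0737 CPM in the onset library of progressor 7 (3 counts each, covering counting error only).

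Marco lies on the minus strand of chromosome 1 (ENSMUSG00000026390, 120474538 to 120505024, GRCm38) and Cd36 on the minus strand of chromosome 5 (ENSMUSG00000002944, 17781690 to 17888801). The 250 bases upstream of a RefSeq start of each (GRCm38.p6) are shown because these were the receptors with the largest fall and the largest gain after 6 weeks in progressors. The Cd36 start used lies inside the interval given for the gene, and 1 start per member was searched. Capitals mark GAGGAA, the core bound by the macrophage factor PU.1, in Marco, and GGGCGG, the GC box bound by SP1, in Cd36.
Marco, chr1:120505025-120505274, minus strand: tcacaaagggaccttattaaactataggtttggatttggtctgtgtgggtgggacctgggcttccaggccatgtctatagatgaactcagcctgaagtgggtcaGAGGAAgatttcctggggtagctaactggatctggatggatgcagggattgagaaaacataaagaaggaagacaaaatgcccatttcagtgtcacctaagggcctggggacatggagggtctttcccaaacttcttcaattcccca
Cd36, chr5:17835897-17836146, minus strand: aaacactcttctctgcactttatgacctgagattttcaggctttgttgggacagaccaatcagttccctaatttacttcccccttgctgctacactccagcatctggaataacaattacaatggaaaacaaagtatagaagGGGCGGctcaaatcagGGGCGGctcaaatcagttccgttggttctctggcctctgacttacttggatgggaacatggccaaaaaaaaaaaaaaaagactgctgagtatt
Searched on both strands, GAGGAA was present upstream of 4 of the 6 members searched (Cd68, Marco, Mrc1 and Stab1) and of 23.3% of 32851 promoters of the same length. GGGCGG was present upstream of Cd36, Cd68 and Mrc1 and in 32.7% of all promoters, and the AP-1 motif TGANTCA upstream of Cd68 only among the 6 and in 6.7% of all. The letters overlap no other searched motif in the stretches printed, and a match describes the sequence only.

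The first comparison asked whether receptor levels separated the NOD strain from NOR over batch 1 libraries, with the counts of each mouse summed. NOR and nonprogressors were sampled at the same 5 ages, and progressors at 6 weeks and then at times set by onset. Only 4 of the 5 NOR mice had a library at 6 weeks, and 4 of 5 at 18 weeks. The sums therefore differ in the times they hold. Marco was lower in NOD mice. The mean Marco level per mouse was 3.61 ± 1.68 CPM in NOR (SD, n = 5, range 2.05 to 6.41), 1.37 ± 0.443 CPM in nonprogressors (n = 4, 0.966 to 1.96) and 1.91 ± 0.335 CPM in progressors (n = 5, 1.36 to 2.16). All 4 nonprogressors lay below the lowest NOR mouse, whereas the progressors overlapped the lower end of the NOR range. In the edgeR quasi-likelihood test across all genes, with Benjamini-Hochberg adjustment over them, the log2 fold change was −1.03 ± 0.22 (SE, adjusted p = 0.00918), which is 2.04-fold lower in NOD. Of the 9 receptors 1 was called (adjusted p below 0.05), beside 8.98% of 23387 genes. Stab1, a receptor for acetylated lipoprotein and matrix fragments, stood at −0.28 ± 0.09 (adjusted p = 0.0673 in edgeR) and Cd163 at −0.63 ± 0.30 (adjusted p = 0.219), and neither passed the test. The sign of the Cd163 value turned with the ages included, to 0.40 without the 22-week libraries (edgeR adjusted p = 0.456) and 0.44 with the 6-week libraries alone (adjusted p = 0.737). The other 6 receptors lay between −0.08 (Mrc1) and 0.15 (Cd36). With the 6-week libraries alone Marco stood at −0.66 and was not called (edgeR adjusted p = 0.566).

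Among the other macrophage genes, 5 of 12 markers were lower in NOD and none higher, led by the complement genes C1qb (−0.88 ± 0.10), C1qa (−0.50 ± 0.10) and C1qc (−0.53 ± 0.11). Of all genes 8.98% were called in either direction. Cxcl16 (−0.55 ± 0.12), a chemokine that is also a scavenger receptor, and Lrp1 (−0.24 ± 0.07), an endocytic receptor for apolipoprotein E, were the 2 of 14 further scavenger receptors called, both lower. Of 12 haem and iron genes, Hpx, the haem carrier haemopexin, was higher (1.51 ± 0.18) and Slc40a1, the iron exporter ferroportin, lower (−1.16 ± 0.29). Hpx was near the floor, at no more than 1.96 CPM in any of the 120 libraries. The medians of these 3 lists were −0.17, −0.07 and −0.03 against −0.0016 for all genes, and no gene passed among 14 cholesterol genes or 12 macrophage transcription factors. The part of the macrophage markers in the Marco difference was not tested.

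Nonprogressors alone against NOR gave 0 called receptors (edgeR) beside 6.26% of 22975 genes, and 2 of 9 with an unadjusted p below 0.05 beside 21.6% of genes. Marco stood at −1.18 ± 0.32 (adjusted p = 0.0589) and Stab1 at −0.32 ± 0.11 (adjusted p = 0.118), and Cd163 at −0.65 (adjusted p = 0.334). The other 6 lay between −0.10 (Mrc1) and 0.08 (Cd36). The Marco result lay at the threshold. DESeq2 called both (Marco adjusted p = 0.00243, Stab1 0.0479), and in edgeR Marco was called without nonprogressor 4 (−1.45, adjusted p = 0.0332), as was Cd163 (−1.22, adjusted p = 0.00622). The Cd163 value was 0.36 without the 22-week libraries (edgeR adjusted p = 0.581) and −0.05 with each library entered separately (adjusted p = 0.963). Without the 22-week libraries Marco stood at −1.32 and was called by edgeR (adjusted p = 0.0293). The macrophage marker list again had 5 of 12 genes lower and none higher.

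At 6 weeks of age the question was whether progressors already differed from nonprogressors. None of the 9 receptors was called by edgeR or DESeq2, and neither was any of the 19082 genes tested by edgeR (0%). In edgeR, 1 of 9 had an unadjusted p below 0.05, beside 5.16% of genes, and this was Marco. In progressors Marco read 4.87, 4.63, 5.27, 7.61 and 2.35 CPM in batch 1 (mice 1 to 5). In batch 2 progressors 6 to 10 read 0.963, 3.16, 3.56, 37.4 and 5.63 CPM. Nonprogressors read 2.32, 2.66, 3.35 and 2.83 CPM in batch 1 and, in batch 2, from 1.07 to 5.82 CPM with a median of 2.92 (n = 7). In batch 1 a single progressor lay within the nonprogressor range and the other 4 above it, and in batch 2 only progressor 9 lay above that range. The log2 fold change was 1.35 ± 0.44 (unadjusted p = 0.00624, adjusted p = 0.891), and it was 0.45 without progressor 9, 0.80 in batch 1 alone and 1.71 in batch 2 alone. The other 8 receptors lay between −0.13 and 0.23 on the log2 scale, with adjusted p-values of 0.909 or more.

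The library of progressor 9 at 6 weeks also held 19.99 CPM of Fpr1, the formyl peptide receptor, against 0.867 to 4.90 in the other 4 progressors of that batch. Its macrophage marker list summed to 7667 CPM against 5446 to 7238, and its neutrophil list to 27.1 CPM against 12.7 to 18.4. The part of these cells in the Marco value was not tested.

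Marco was placed by the study in a signature chosen on progressors at 6 weeks against nonprogressor libraries of every age, so its value in that comparison is no independent evidence. The same 6-week progressor libraries enter the comparisons at 6 weeks, with later progressor times and of the changes after 6 weeks. The Marco values there are not independent of that choice either. Against all nonprogressors Marco was the 1 receptor called, beside 6.15% of 20411 genes, at a log2 fold change of 2.16 ± 0.40 (edgeR adjusted p = 0.0135). It was 1.49 without progressor 9 (adjusted p = 0.0269) and 2.10 but no longer called without progressor 4 (adjusted p = 0.0561). The 39 nonprogressor libraries entered separately, so repeated biopsies of a mouse counted as independent in these p-values. The groups differ in age in that comparison, and Marco differed with age in nonprogressors themselves, as follows. The 6-week INs were those placed at 4 weeks of age, and later biopsies followed repeated surgery. With the weekly rotation the time an IN had been in place could differ too. Age, time in place, implant replacement and repeated surgery cannot be told apart in any comparison of 6 weeks with later times. Cd36 stood at −0.33 ± 0.14 (adjusted p = 0.124), and the other 7 receptors lay between −0.16 (Msr1) and 0.09 (Stab1).

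In nonprogressors Marco fell after 6 weeks of age. In batch 1 the 4 mice averaged 2.79 ± 0.427 CPM at 6 weeks, 2.06 ± 1.93 at 10 weeks, 0.668 ± 0.307 at 14 weeks, 0.585 ± 0.220 at 18 weeks and 0.759 ± 0.590 at 22 weeks (SD, n = 4 each). In batch 2 the mean was 3.03 ± 1.42 CPM at 6 weeks (n = 7) and 0.416 ± 0.225 at 14 weeks (n = 6). All 10 mice sampled at both ages were lower later, and in batch 2 the highest 14-week library (0.718 CPM) lay below the lowest 6-week library (1.07 CPM). At 10 weeks the groups still overlapped, since mouse 4 read 4.94 CPM against 0.850 to 1.40 in the other 3. The log2 fold change of 10 to 22 weeks against 6 weeks was −2.01 ± 0.34 (edgeR adjusted p = 0.00013), or 4.02-fold lower, and it was −1.69 within batch 1 (adjusted p = 0.0134) and −2.86 within batch 2 (adjusted p = 0.000272). Of 9 receptors 1 was called, beside 24.1% of 21138 genes. The other 8 ran from −0.24 for Scarb1 to 0.32 for Cd36 (edgeR adjusted p = 0.126), with Colec12 at 0.24, Msr1 and Cd68 at 0.16, Stab1 at −0.12 and Cd163 at −0.18. A test of any difference among the ages in edgeR also called Msr1 (adjusted p = 0.0122), Cd68 (adjusted p = 0.0144) and Scarb1 (adjusted p = 0.0495). In batch 1 Msr1 averaged 115, 114, 159 and 157 CPM at 6, 10, 14 and 18 weeks. It averaged 231 CPM in the 22-week libraries, which were rich in 7SL and 7SK. Without those libraries the Msr1 difference from 6 weeks was −0.02 (edgeR adjusted p = 0.959). Cd68 was called at 0.33 without the batch term (edgeR adjusted p = 0.0282) and at 0.33 without the 22-week libraries (adjusted p = 0.0281).

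**Figure D2:**
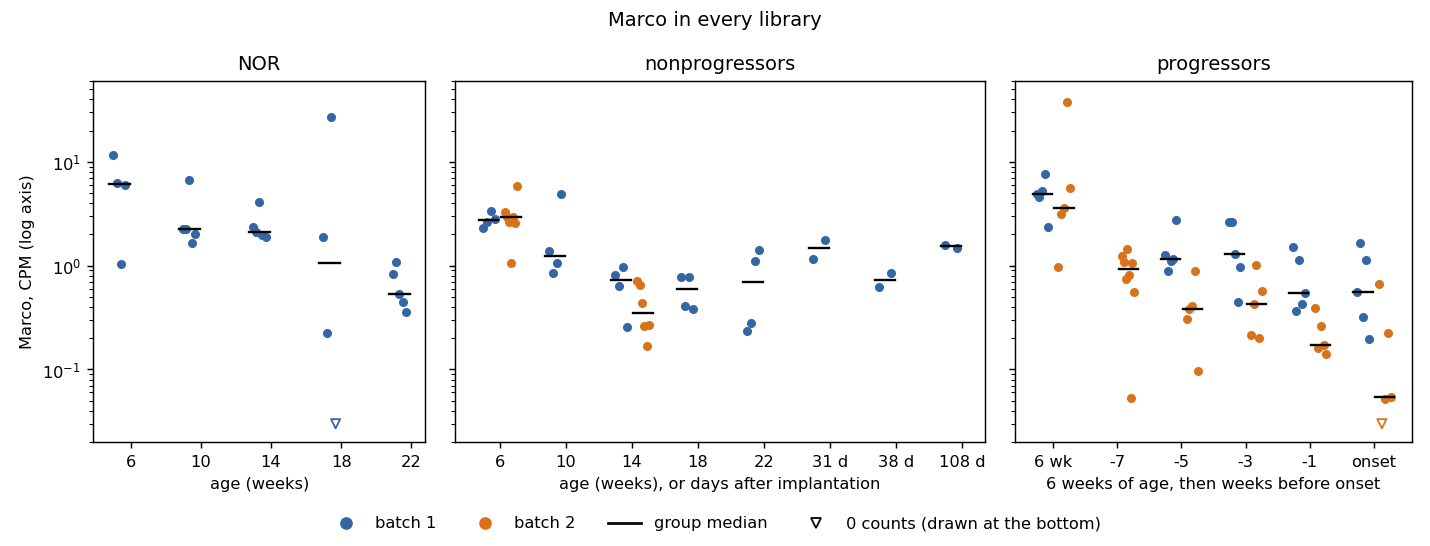
Marco in CPM (log axis) in each library of NOR, nonprogressors and progressors by age, day or weeks before onset, coloured by batch, with black lines at group medians and open triangles at the bottom for 0 counts. Nonprogressors and progressors start highest at 6 weeks, and the onset libraries of batch 2 are lowest at 0 to 0.661 CPM.

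The age differences of Mrc1, the mannose receptor, and Cd163, the haemoglobin-haptoglobin receptor, had opposite signs in the 2 nonprogressor batches. Mrc1 was −0.01 ± 0.25 over both, but 0.72 in batch 1 alone (adjusted p = 0.0323 in edgeR) and −0.65 in batch 2 alone (adjusted p = 0.0279). In batch 1 its mean was 251 ± 15.2 CPM at 6 weeks and 307 to 518 at the 4 later ages (n = 4 each). In batch 2 it was 691 ± 53.7 CPM at 6 weeks (n = 7, 606 to 773) and 444 ± 215 at 14 weeks (n = 6), where 5 of 6 libraries lay below the whole 6-week range and mouse 5 reached 861. Cd163 likewise fell in batch 2 alone (−1.30, adjusted p = 0.0026), from 85.6 ± 27.7 to 34.9 ± 13.5 CPM, and stood at 1.12 in batch 1 alone (adjusted p = 0.194). Stab1 was lower in batch 2 alone (−0.34, adjusted p = 0.0311). The batches differed in mice and instrument and in the later ages sampled, which cannot be told apart.

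The size of the batch difference was measured in nonprogressors at 6 and 14 weeks, the ages in both batches. Msr1 (0.45 ± 0.16, edgeR adjusted p = 0.0255) and Cd36 (0.64 ± 0.15, adjusted p = 0.00115) were higher and Cd68 (−0.36 ± 0.11, adjusted p = 0.00821) lower in batch 2. These were 3 of 9 receptors, beside 49.5% of 19748 genes. Mrc1 stood at 0.58 (edgeR adjusted p = 0.0711) and Scarb1 at −0.30 (adjusted p = 0.0539), and Cd163, Stab1 and Colec12 at 0.13, −0.08 and 0.11. Marco differed little between batches by this measure (−0.23 ± 0.29, adjusted p = 0.527), with an SE too wide to show that the batches were alike.

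Genes that handle the cargo of the receptors were followed with age in nonprogressors, where 24.1% of all genes were called in either direction. Of 14 cholesterol efflux and lipid storage genes 5 were higher and none lower at 10 to 22 weeks, led by the cholesterol exporters Abca1 (0.45 ± 0.10) and Abcg1 (0.51 ± 0.11) and by Soat1 (0.39 ± 0.11), which esterifies cholesterol. Of 12 haem and iron genes 4 were higher, led by the haem transporter Slc48a1 (0.50 ± 0.10). Of 12 macrophage transcription factors 5 were higher, among them Mitf (0.37 ± 0.09) and Bhlhe41 (0.42 ± 0.11). The medians of these 3 lists were 0.23, 0.22 and 0.21, against −0.03 for all genes. Of 14 other scavenger receptors 3 were higher, among them Lrp1 (0.55 ± 0.09) and Cxcl16 (0.57 ± 0.10), and 4 lower, among them Cd5l (−2.18 ± 0.33), a secreted scavenger protein of macrophages. All 6 fibroblast markers were lower, and their sum fell from medians of 28126 CPM in batch 1 and 32588 in batch 2 at 6 weeks to medians of 12954 to 25093 at 10 to 22 weeks, while the macrophage list had 1 gene higher and 1 lower. The part of the fibroblasts in the receptor values was not tested.

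The 6 nonprogressor libraries labelled in days gave Marco at 1.16 and 1.78 CPM on day 31, 0.616 and 0.847 on day 38 and 1.48 and 1.58 on day 108. They entered no comparison other than that with all nonprogressors. Their B cell marker sums on day 108, 42.3 and 43.8 CPM, lay above the 0.449 to 21.1 CPM of the other 118 libraries.

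In NOR mice the receptor that moved furthest with age was Cd163, and the edgeR test of 10 to 22 weeks against 6 weeks did not call it. Cd163 read 15.8 to 34.9 CPM at 6 weeks (n = 4) and 10.0 to 48.8 at 10 weeks (n = 5). It then averaged 54.7 ± 22.98 CPM at 14 weeks, 75.7 ± 42.6 at 18 weeks and 235 ± 69.5 at 22 weeks (SD, n = 5, 4 and 5). At 22 weeks the 5 mice read 261, 279, 188, 138 and 307 CPM, all above every NOR library of the earlier ages, and all above the 4 nonprogressors of that age (38.9 to 95.6 CPM). Mrc1 was also highest at 22 weeks, with 287 ± 28.1 CPM at 6 weeks (n = 4) and 595 ± 86.4 at 22 weeks (n = 5, 512 to 720), and these ages did not overlap. For the mean of 10 to 22 weeks against 6 weeks the log2 fold change was 1.51 ± 0.39 for Cd163 (unadjusted p = 0.000785, adjusted p = 0.237 in edgeR), 0.40 ± 0.18 for Mrc1 (adjusted p = 0.711) and −1.32 ± 0.61 for Marco (adjusted p = 0.717). The other 6 receptors lay between −0.02 (Scarb1) and 0.25 (Cd36).

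These 3 of 9 receptors had an unadjusted p below 0.05, beside 6.83% of 19628 genes, and 0 of 9 were called beside 0.0357% of genes. DESeq2 called Cd163 (adjusted p = 0.008), and a test of any difference among the 5 ages in edgeR called Cd163 (adjusted p = 9.65e-05) and Mrc1 (adjusted p = 0.00519). Without the 22-week libraries the log2 fold change of Cd163 was 0.92 and not called. Marco in NOR turned on mouse 4, which read 1.03 CPM at 6 weeks and 26.9 at 18 weeks, while mice 1, 2 and 5 were lower later. Without mouse 4 Marco stood at −2.36 and was called (edgeR adjusted p = 0.0265). That 18-week library also had a neutrophil marker sum of 343 CPM against 9.09 to 33.1 in the other 3 NOR libraries of that age and a macrophage sum of 10529 CPM against 3633 to 4591, and their part in its Marco value was not tested. No gene of the 4 pathway lists was called with age in NOR.

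The age changes of nonprogressors and NOR were then compared with each other, in an interaction test. No receptor and no gene was called by edgeR (0% of 20647) and no receptor by DESeq2, and 0 of 9 receptors had an unadjusted p below 0.05, beside 6.05% of genes. The difference for Marco was −0.35 ± 0.84 on the log2 scale and turned to 0.67 without NOR mouse 4. For Cd163 it was −0.37 ± 0.63, turning to 0.22 without the 22-week libraries, and for Mrc1 0.35 ± 0.27, and the other 6 receptors lay between −0.22 (Scarb1) and 0.39 (Colec12). With SEs of this size, differences of around 1 log2 unit in Cd163 and Marco were not detectable.

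In progressors the mean of Marco was lower at every later time than at 6 weeks, in both batches. In batch 1 its mean fell from 4.94 ± 1.88 CPM at 6 weeks to 1.43 ± 0.742 at 5 weeks before onset, 1.60 ± 0.993 at 3 weeks, 0.793 ± 0.499 at 1 week and 0.767 ± 0.603 at onset (SD, n = 5 each). In batch 2 the 5 libraries at 5 weeks before onset read 0.0972 to 0.891 CPM, and those at onset read 0.661, 0, 0.0522, 0.227 and 0.0546 CPM. Every one of the 10 mice was lower later than at 6 weeks, and in batch 2 only progressor 6, at 0.963 CPM at 6 weeks, overlapped the later libraries. The log2 fold change of 5 weeks before onset to onset against 6 weeks was −3.95 ± 0.39 (edgeR adjusted p = 4.57e-11), 15.5-fold lower. It was −2.81 without progressor 9 (adjusted p = 1.32e-08), −2.17 in batch 1 alone (adjusted p = 0.000441) and −5.01 in batch 2 alone (adjusted p = 2.91e-08).

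Msr1, Cd36 and Colec12 rose over the same interval. Together with Marco 4 of 9 receptors were called beside 39.5% of 21279 genes, 3 of them higher beside 19.6% and 1 lower beside 19.9%, so the share of receptors called was near that of all genes. Cd36 gained 0.57 ± 0.12 (edgeR adjusted p = 0.000188), or 1.48-fold, and was higher later in 9 of 10 mice. In batch 1 Cd36 read 717, 658, 577, 677 and 430 CPM at 6 weeks and 777, 1434, 1340, 1431 and 992 CPM in the same mice at 5 weeks before onset. In batch 2 its 6-week libraries read 1045, 1722, 1035, 742 and 1012 CPM and overlapped those at onset (990 to 2042 CPM).

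Msr1 gained 0.45 ± 0.13 (adjusted p = 0.00484 in edgeR) and was higher later in 9 of 10 mice, but it was not called without the batch term (0.40, adjusted p = 0.069). In batch 1 it read 68.8 to 135 CPM at 6 weeks and 139 to 188 at onset without overlap, and in batch 2 140 to 298 and 225 to 372 with overlap (n = 5 each). Colec12 gained 0.30 ± 0.11 (adjusted p = 0.0201), with 320 ± 42.5 CPM at 6 weeks and 550 ± 112 at 5 weeks before onset in batch 1, and it was not called without mouse 1, 3 or 5 (adjusted p = 0.0538 to 0.0697), nor by an edgeR test of any difference among the times (adjusted p = 0.102). All 3 gains were larger in batch 1 than in batch 2. Within batch 1 they were 0.72 for Cd36 (adjusted p = 0.00255), 0.67 for Msr1 (adjusted p = 0.0106) and 0.50 for Colec12 (adjusted p = 0.0147). Within batch 2 they were 0.43 (adjusted p = 0.0667), 0.25 (adjusted p = 0.249) and 0.11 (adjusted p = 0.515), and none was called. The difference between the batches was not tested. The share of counts given to the small RNAs 7SL and 7SK also moved with time in batch 1, from a median of 2.63% at 6 weeks to medians of 6.21, 9.62, 7.99 and 9.40% at 5, 3 and 1 weeks before onset and at onset. In batch 2 the median was 4.40% at 6 weeks and 3.71, 4.60, 4.99 and 6.16% at those times. The part of this share in the gains was not tested.

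**Figure D3:**
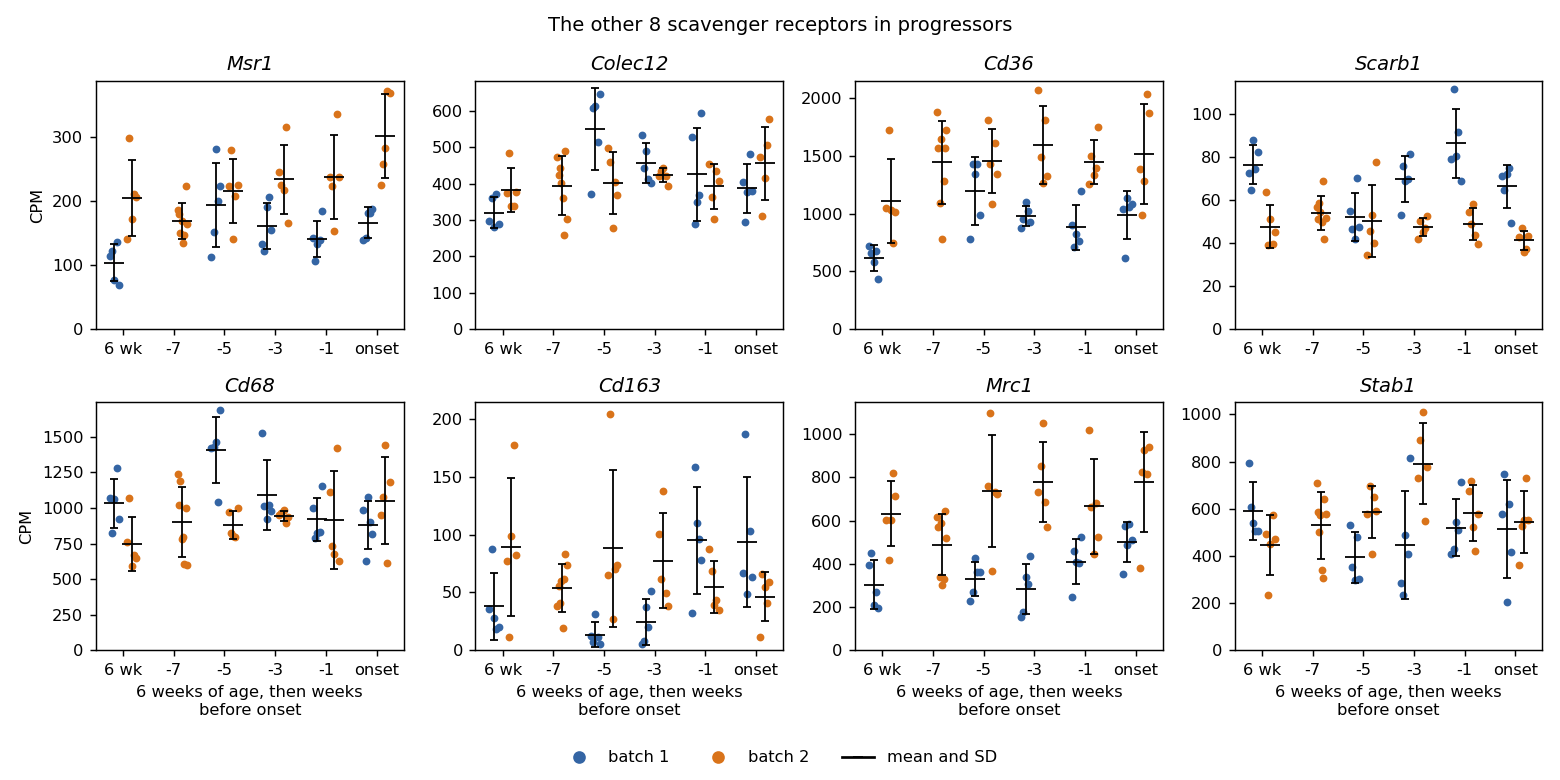
The 8 receptors other than Marco in progressors, in CPM against 6 weeks of age and weeks before onset, with 1 point per library coloured by batch and black marks for mean and SD. In batch 1 Cd36 and Colec12 stand higher at 5 weeks before onset than at 6 weeks, and Msr1 in batch 2 reaches its highest mean, 301 CPM, at onset.

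The remaining 5 receptors were not called in this contrast, although an edgeR test of any difference among the times called Mrc1 (adjusted p = 0.0429). Their log2 fold changes were 0.26 ± 0.16 for Mrc1, 0.19 ± 0.12 for Cd68, 0.03 ± 0.16 for Stab1, 0.00 ± 0.39 for Cd163 and −0.10 ± 0.10 for Scarb1. For Cd163 the value of 0 joined courses that ran apart. In batch 1 the mean of Cd163 was 38.0 ± 28.7 CPM at 6 weeks, 13.5 ± 10.6 at 5 weeks before onset and 93.8 ± 56.0 at onset, whereas in batch 2 it was 89.5 ± 59.5, 88.1 ± 67.7 and 46.5 ± 21.5 (n = 5 each).

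The cargo-handling genes were counted in the same libraries, beside 19.6% of all genes higher and 19.9% lower. Of 14 cholesterol efflux and lipid storage genes 8 were higher and none lower near onset than at 6 weeks, led by Abca1 (0.62 ± 0.08), Abcg1 (0.64 ± 0.11) and Npc1 (0.35 ± 0.06), which moves cholesterol out of lysosomes. Of 12 haem and iron genes 5 were higher, led by Slc48a1 (0.57 ± 0.10), the biliverdin reductase Blvra (0.26 ± 0.08) and Hpx (0.51 ± 0.18, near the floor at up to 1.96 CPM). The medians of these 2 lists were 0.38 and 0.27, against 0.01 for all genes. Of 14 other scavenger receptors 7 were higher and 5 lower, among them Scarb2, the lysosomal relative of Cd36 (0.30 ± 0.04), Cxcl16 (0.84 ± 0.12) and Cd5l (−2.39 ± 0.36). Of 12 macrophage transcription factors 5 were higher and 2 lower, with Mitf (0.47 ± 0.06) and Irf8 (0.46 ± 0.09) among those higher.

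Other cell types moved with these values. All 6 fibroblast markers were lower (median −1.23), with a sum of 27529 to 53202 CPM at 6 weeks and 4584 to 27976 CPM from 5 weeks before onset to onset, and 5 of 6 T cell and 4 of 5 B cell markers were higher. The T cell sum was 3.09 to 7.53 CPM at 6 weeks and 4.85 to 33.9 CPM later, and the B cell sum 0.558 to 2.48 and 0.516 to 15.4 CPM. The blood endothelial markers with the smallest p, Emcn (−0.85 ± 0.27), Kdr (−0.62 ± 0.22) and Cdh5 (−0.65 ± 0.23), were lower. So were the lymphatic endothelial markers Lyve1 (−1.10 ± 0.23) and Reln (−1.26 ± 0.36). The macrophage marker list had 2 genes higher, among them Cd14 (0.28 ± 0.11), and 1 lower (Fcgr1, −0.69 ± 0.21) of 12, and so 3 of 12 were called beside 39.5% of all genes. Its sum was 3913 to 7667 CPM at 6 weeks and 3045 to 9289 CPM later. The part of these cells in the receptor values was not tested.

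The libraries taken 7 weeks before onset were compared with those at 6 weeks. Here 2 of 9 receptors were called beside 12.5% of genes. Marco was at 0.0529 to 1.44 CPM with a median of 0.937 (n = 8) and −2.81 ± 0.61 on the log2 scale (edgeR adjusted p = 0.00148), or −1.51 and not called without progressor 9 (adjusted p = 0.0546). Cd36 was at 784 to 1880 CPM with a median of 1568 and 0.48 ± 0.16 (adjusted p = 0.0387). The other 7 receptors ran from −0.51 (Cd163) and −0.35 (Mrc1) to 0.17 (Colec12). With the mouse as a replicate block Cd36 was no longer called (0.32, adjusted p = 0.405), nor within batch 2 alone (adjusted p = 0.188), nor without any of 8 of the 10 mice in turn. All libraries of that time were in batch 2, so this contrast rests on the batch term for mice 1 to 4. The cholesterol list had 6 of 14 genes higher, led by Pparg (0.81 ± 0.17), the lipid-sensing nuclear receptor that drives Cd36, Lipa (0.51 ± 0.13) and Abcg1 (0.55 ± 0.15). The lectin Clec7a (0.95 ± 0.18) led 4 other scavenger receptors that were higher, and the transferrin receptor Tfrc (1.02 ± 0.24) led 4 haem and iron genes.

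From 7 weeks before onset to the 4 later times, 1 of 9 receptors was called beside 3.89% of genes. Msr1 was 134 to 223 CPM at 7 weeks before onset (n = 8) and rose by 0.58 ± 0.15 (edgeR adjusted p = 0.0222). With the mouse as a replicate block it was 0.66 but not called (adjusted p = 0.127), nor was it without the batch term (0.28, adjusted p = 0.318) or without mouse 3, 4, 6 or 7. Mrc1 stood at 0.61 ± 0.19 (adjusted p = 0.0582) and was called by DESeq2 (adjusted p = 0.0221). Marco stood at −1.15 ± 0.50 (adjusted p = 0.185) and Cd163 at 0.51, and the other 5 lay between −0.22 (Scarb1) and 0.15 (Stab1). Around them Abca1 was higher (0.40 ± 0.09), and Pparg (−0.56 ± 0.14) and Nr1h3 (−0.60 ± 0.15), the liver X receptor that senses oxysterols, were lower. Among the other scavenger receptors Olr1, the oxidized lipoprotein receptor LOX-1, was higher (0.88 ± 0.26). Cd207, at a median of 0.169 CPM over the 120 libraries, was lower (−1.64 ± 0.47), as was the transferrin receptor Tfrc (−0.64 ± 0.18).

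From 5 weeks before onset to the 3 later times no receptor was called by edgeR or DESeq2, beside 0.385% of genes in edgeR, and 0 of 9 had an unadjusted p below 0.05, beside 14.2% of genes. Cd163 stood at 0.63 ± 0.44, Marco at −0.54 ± 0.44 and Cd68 at −0.23 ± 0.12, with the other 6 between −0.18 (Colec12) and 0.20 (Stab1). The Cd163 value was −0.60 in batch 2 alone (edgeR adjusted p = 0.608).

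Near onset progressors were set against nonprogressors of 10 to 22 weeks, with counts summed per mouse (10 and 10 mice). No receptor was called by edgeR or DESeq2, beside 0.0132% of 22696 genes in edgeR. The 2 receptors with an unadjusted p below 0.05, beside 9.51% of genes, were Stab1 (0.28 ± 0.11, adjusted p = 0.473) and Msr1 (0.34 ± 0.14, adjusted p = 0.491). Mrc1 stood at 0.36 ± 0.19 and Cd163 at 0.46 ± 0.29. The differences were larger in batch 2, where they were 0.52, 0.51, 0.71 and 0.91 for Stab1, Msr1, Mrc1 and Cd163, against −0.03, 0.13, −0.07 and −0.11 in batch 1, and the difference between batches was not tested. Marco stood at −0.14 ± 0.27, and Cd36, Colec12, Cd68 and Scarb1 lay between −0.03 and 0.14.

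**Figure D4:**
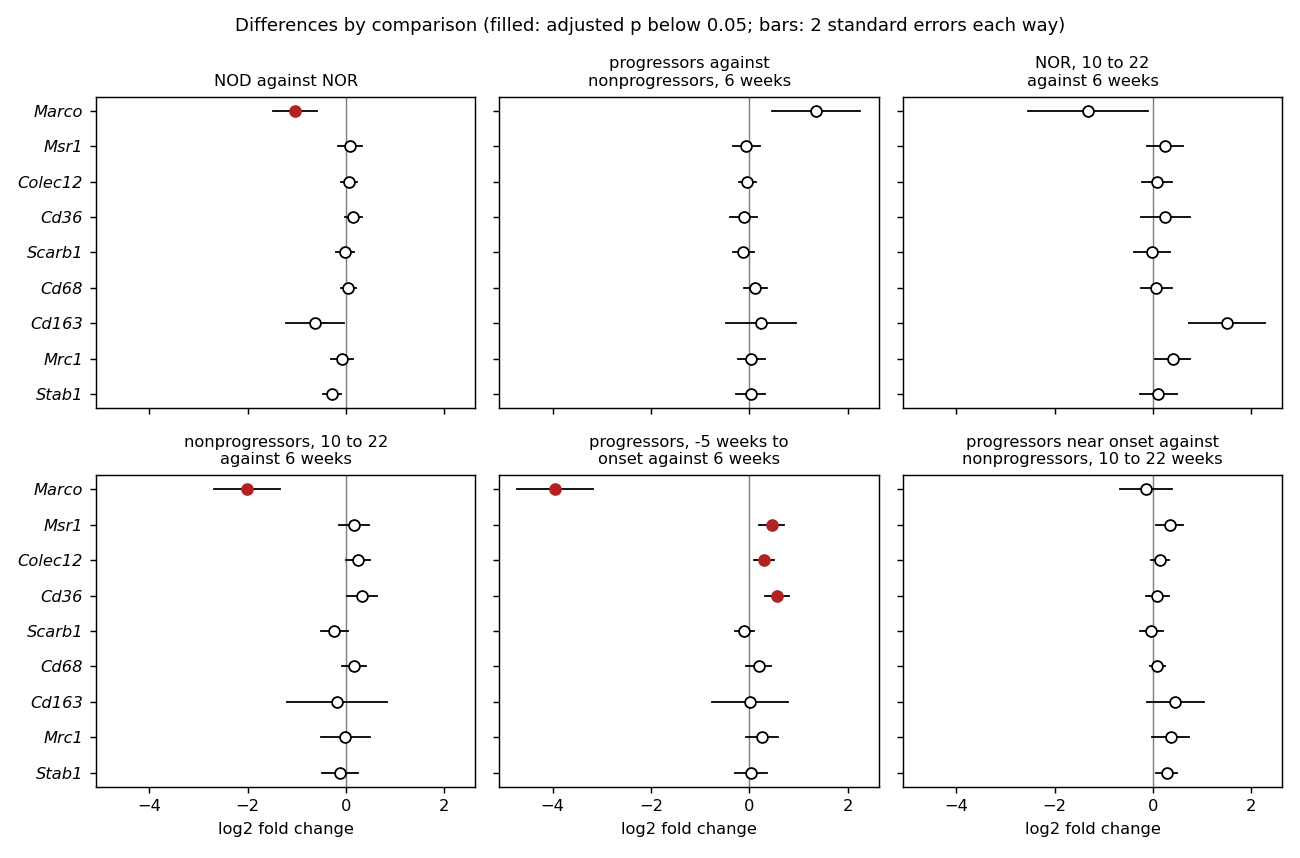
Log2 fold change of each receptor in 6 comparisons, with points at the edgeR estimate, bars of 2 standard errors to each side and filled points for an adjusted p below 0.05. Marco is the receptor called in 3 of the 6 panels, and in progressors near onset Msr1, Cd36 and Colec12 lie to the right of 0.

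Whether receptors moved differently after 6 weeks in progressors than in nonprogressors was tested directly as an interaction. No receptor was called by edgeR or DESeq2 and no gene by edgeR (0% of 22566), and 1 of 9 receptors had an unadjusted p below 0.05, beside 6.41% of genes. That receptor was Marco, at −1.43 ± 0.57 (adjusted p = 0.655), and it stood at −0.18 without progressor 9. The larger fall of Marco in progressors than in nonprogressors was therefore not shown to differ. Cd36 stood at 0.24 ± 0.18, Scarb1 at 0.22 ± 0.16, Msr1 at 0.20 ± 0.20 and Colec12 at 0.12 ± 0.16, and Cd163, Mrc1, Stab1 and Cd68 at −0.18, 0.07, 0.04 and −0.02. The Cd163 value was 0.79 in batch 2 alone (edgeR adjusted p = 0.995).

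Within groups, the receptors were closest to different genes. Likeness was the Pearson correlation of log2 CPM over the 120 libraries, with the mean of each group and batch removed and 23871 genes compared. Libraries of a mouse share the animal and libraries share depth and composition, so these values describe and are not tested. Marco was closest to the formyl peptide receptors Fpr2 (0.76) and Fpr1 (0.71) and to the lectin Clec4n (0.71), and without progressor 9 at 6 weeks and the NOR libraries of mice 4 and 5 at 18 weeks these values were 0.60, 0.56 and 0.66 (n = 117). Cd36 was closest to Stap1 (0.79), Lpl (0.79), the lipoprotein lipase that releases fatty acids, and Rgs1 (0.77). Msr1 was closest to the copper transporter Atp7a (0.87), Snx24 (0.86) and Adam8 (0.86), and Colec12 to Lamp1 (0.85), Pirb (0.81) and Gm14548 (0.80).

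The other 5 receptors each had a different set of closest genes. Cd68 was closest to the lysosomal Ctsa (0.88), Lgals3 (0.88) and Mapk3 (0.87). Mrc1 was closest to F13a1 (0.88), a coagulation factor made by resident macrophages, Ap1b1 (0.79) and Stard8 (0.77), and Stab1 to Nxpe5 (0.83), Rab3il1 (0.74) and the sialoadhesin Siglec1 (0.74). Cd163 was closest to Pcolce2 (0.74), Add3 (0.74) and Lifr (0.74), and its correlation with Mrc1 (0.72) was the highest between any 2 of the 9 receptors. Scarb1 was closest to the endothelial gene Mmrn2 (0.85), Grrp1 (0.84) and Mall (0.84). Against marker lists Scarb1 followed the blood endothelial list (0.81) and the adipocyte list (0.65) and stood at −0.02 with the macrophage list, although it was taken as a macrophage receptor. Over the 120 libraries Marco stood at 0.68 with the macrophage list, 0.53 with the neutrophil list and 0.40 with the fibroblast list, and without the 3 libraries these were 0.51, 0.29 and 0.54 (n = 117). Stab1 stood at 0.56 with the macrophage list, and Cd36 and Cd163 near 0 with it (−0.05 and −0.01).

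**Figure D5:**
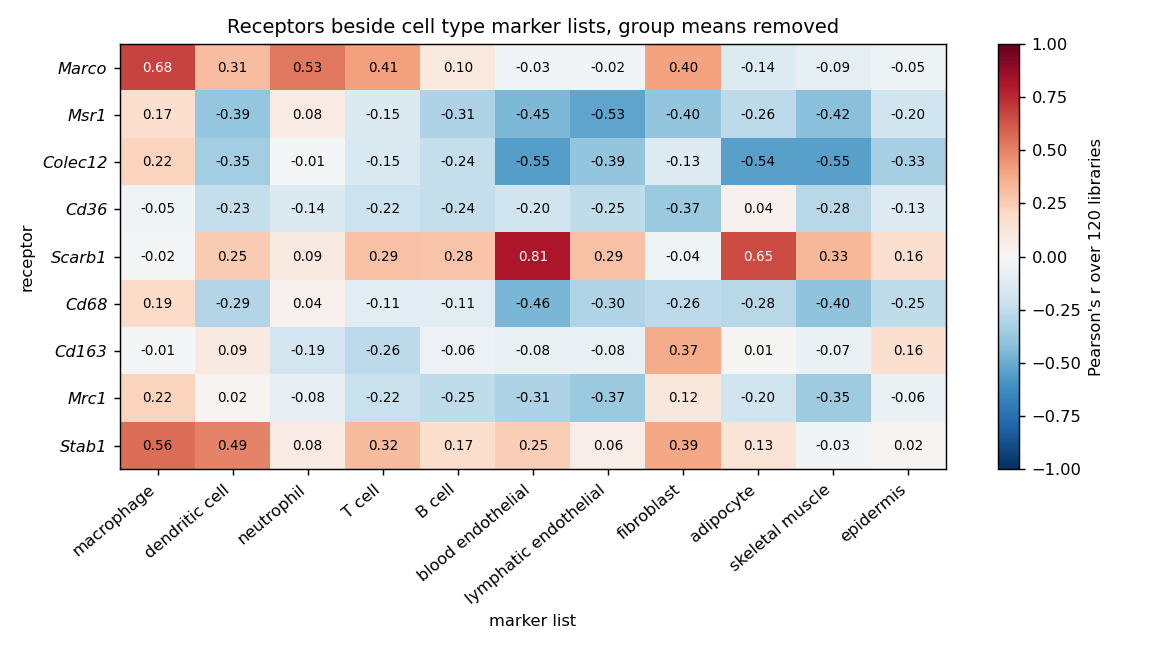
Pearson correlation of each receptor (rows) with the level of 11 cell type marker lists (columns) over 120 libraries after group means were removed, from −1 in blue to 1 in red. Scarb1 stands with the blood endothelial list (0.81) and Marco with the macrophage list (0.68).

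Some counts could be split with overlapping genes. Stab1 (chromosome 14, 31139013 to 31168641) overlaps the end of the opposite-strand gene Nt5dc2. Colec12 (chromosome 18, 9707595 to 9882644) holds 5 counted gene models or pseudogenes inside it, and Scarb1 (chromosome 5, 125277087 to 125341094) holds 1. Their mean counts per library ran from 73.7 to 490, against median counts of 16975, 13876.5 and 1960.5 for Stab1, Colec12 and Scarb1. The levels of these 3 receptors carry that uncertainty, and how the reads were split was not tested.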

How the data were processed

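INs from female NOD/ShiLtJ and NOR/LtJ mice were profiled by bulk total RNA-seq. The deposited tables, 1 per sequencing batch, hold expected counts per gene, which the authors made with cutadapt, STAR and RSEM on GRCm38, and which were deposited as whole numbers (versions not given in the sources used here). Whether counting used strand is not given, so overlapping genes may share reads. Gene positions and exon lengths were taken from GENCODE M21, which matched 55227 genes (99.5%). No 2 libraries of a group were copies of each other (239 pairs compared).

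CPM were scaled by TMM and used as levels, with exon length only between genes. Comparisons used the quasi-likelihood test of edgeR 4.0.16 in R 4.3.3 on the counts, after filterByExpr, with batch as a term where both batches entered and Benjamini-Hochberg adjustment over all genes tested. Genes were called at an adjusted p below 0.05, and the standard error was the fold change divided by the root of the F statistic. Log2 values carry a prior count of 2. Alternatives were DESeq2 1.42.0, RLE or total count scaling, no filter, single batches, no batch term, an F test over ages, each mouse left out and the mouse as a replicate block. The code was tested on simulated data.

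Libraries with the same mouse number came from the same animal, so the numbers pair libraries over time. Over 2000 genes the mean correlation of deviations was 0.017 between libraries of the same NOR mouse against −0.0047 between mice, 0.013 against −0.0072 in nonprogressors and −0.015 against 0.0021 in progressors. Where a mouse gave several libraries, the time comparisons without the block treat them as independent, and p-values then partly reflect the spread between biopsies.

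The 9 receptors, the gene lists and the tests were chosen with earlier results of these data known. All 9 receptors are given in each comparison, those furthest from the threshold as a range, and from each list at most the 3 called genes with the smallest p. One gene that this rule would name is not reported here. Likeness used the 3 genes with the highest Pearson correlation.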

Additional observations from a re-analysis of the deposited data

Results flagged for a closer look

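Sets of a receptor and a group of 4 to 10 libraries were checked by Dixon's criterion. In 23 of 207 sets the highest or lowest library stood apart from the others of its group. The chance rate of about 1 such set in 20 holds for independent, normally distributed values. The CPM were not transformed and the receptors share libraries, so no excess over chance can be read from the 23. The 23 values came from 21 libraries, in CPM throughout.

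Marco gave 6 of them, all high. The 6-week library of progressor 9 read 37.4 (others of batch 2, 0.963 to 5.63), the 18-week library of NOR mouse 4 read 26.9 (others 0 to 1.88), and NOR mouse 3 read 6.68 at 10 weeks (others 1.65 to 2.25) and 4.08 at 14 weeks (others 1.87 to 2.34). Nonprogressor 4 read 4.94 at 10 weeks (others 0.850 to 1.40) and progressor 5 read 2.74 at 5 weeks before onset (others 0.898 to 1.25).

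Cd163 gave 5, all high. Nonprogressor 4 read 187 at 10 weeks and 158 at 14 weeks (others 13.1 to 34.2 and 43.8 to 63.0), progressor 2 read 87.8 at 6 weeks (others of batch 1, 18.2 to 35.9), progressor 3 read 31.8 at 5 weeks before onset (others of batch 1, 5.32 to 12.1) and progressor 7 read 204 at that time in batch 2 (others 26.7 to 74.0). Nonprogressor 4 at 10 weeks was thus apart for both Marco and Cd163.

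Cd36 was high in NOR mouse 4 at 22 weeks (1080, others 566 to 641) and low in progressor 2 at onset (616, others of batch 1, 1038 to 1137) and in nonprogressor 6 at 14 weeks (770, others of batch 2, 1412 to 1693). Colec12 was high in NOR mouse 4 at 6 weeks (525, others 318 to 343) and in progressor 7 at 6 weeks (485, others of batch 2, 339 to 378) and low in nonprogressor 3 at 18 weeks (364, others 501 to 519). Cd68 was high in progressor 1 at 3 weeks before onset (1529, others of batch 1, 921 to 1020) and in nonprogressor 5 at 6 weeks (911, others of batch 2, 601 to 734). Mrc1 was high in nonprogressor 5 at 14 weeks (861, others of batch 2, 277 to 470), where Scarb1 was low (27.6, others 51.8 to 63.7), and Mrc1 was low in progressor 6 at onset (379, others of batch 2, 817 to 941). Scarb1 was high in nonprogressor 2 at 14 weeks (84.1, others of batch 1, 54.5 to 57.3).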

How the results depend on the processing

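Over all comparisons and receptors, 2553 of 2619 values under an alternative stayed on the same side of the threshold, among them 176 uncalled values that changed sign, 32 newly passed it and 33 no longer did. One value that was not called, Mrc1 in nonprogressors after 6 weeks (−0.01), was called with the opposite sign in batch 1 alone (0.72). The count of receptors called changed by more than 1.5 times in these cases, and the cause was not tested. With DESeq2 it was 2 for NOD against NOR, 2 for nonprogressors against NOR, 1 for NOR after 6 weeks, 2 for progressors after 7 weeks before onset and 5 between batches. Nonprogressors against NOR gave 1 with total counts, with each library entered separately and without the 22-week libraries (an alternative chosen after seeing the data). NOD against NOR gave 0 with 6-week libraries alone. Progressors at 6 weeks against all nonprogressors gave 0 in batch 2 alone. Nonprogressors after 6 weeks gave 2 without the batch term, 2 in batch 1 alone, 4 in batch 2 alone, 4 with the F test over ages and 2 without the 22-week libraries, and NOR after 6 weeks gave 2 with the F test. Progressors at 7 weeks before onset against 6 weeks gave 1 with no filter and 1 in batch 2 alone, progressors from 5 weeks before onset against 6 weeks gave 1 in batch 2 alone, and against 7 weeks before onset 0 without the batch term. With the mouse as a replicate block the counts were 1 for 7 weeks before onset against 6 weeks and 0 for the later times against 7 weeks before onset, and no other call changed. In that fit of the progressor and nonprogressor changes the mice carry the batch, so no batch term could be added. Leaving out 1 mouse at a time gave 1 to 1 receptors called for NOD against NOR, 0 to 2 for nonprogressors against NOR, 0 to 2 for progressors at 6 weeks against all nonprogressors, 1 to 2 for nonprogressors after 6 weeks, 0 to 1 for NOR after 6 weeks, 0 to 2 for 7 weeks before onset against 6 weeks, 3 to 4 for the later times against 6 weeks, 0 to 2 against 7 weeks before onset, 1 to 4 between batches, and 0 to 0 for the other 5 comparisons. Of 234 group levels, 23 moved by more than the SD between libraries when scaled by total counts. The depth limits Marco most, at a median of 33 counts per library.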
